A study of Mus musculus with 6 samples.

Results

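The 3 mammary tumors of this series, numbered 23, 24 and 25 in the labels, were compared with each other across 22180 genes, to describe which expression programs the tumors shared and which differed between them. The tumors are the 3 samples titled as Brca1 tumors, of 6 samples in all. They developed in females of genotype Trp53L/L;Brca1L/L, several months after Ad-K8-Cre was injected into the mammary ducts. This adenovirus makes Cre recombinase from a keratin 8 promoter, and the labels call them Trp53/Brca1-null. The other 3 samples (K8wt replicates 1, 2 and 4) were luminal cells sorted for yellow fluorescent protein from Rosa26-Stop-YFP females 10 to 14 days after the same virus. The K8wt arrays serve here to show how far 3 arrays of 1 group spread, and their levels are printed beside some tumor values. Those levels come from sorted cells, so cell content may differ from the tumors as well. The tumors were not tested against the K8wt arrays. The labels give no ages, leave unsaid whether the tumors grew in separate mice, and describe no sorting of tumor cells, so each tumor array holds the RNA of tumor and host cells together. Each tumor was measured once. A difference between tumors is therefore a difference between 2 arrays, with no replicate check and no test.

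Tumors that lose Brca1 and Trp53 in the mammary epithelium are used as models of basal-like breast cancer. Brca1 encodes a factor of DNA repair by homologous recombination, and Trp53 the transcription factor p53, which halts or kills cells with damaged DNA. The mammary duct has an inner luminal layer marked by keratins 8 and 18 and an outer basal layer marked by keratins 5 and 14 and by p63. Basal-like tumors can express genes of both layers, divide rapidly, and differ between animals in their mesenchymal, squamous and stromal content. A bulk array cannot tell a change in the number of cells of a type from a change in the RNA of each cell.

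Values are log2 expression values, on which 1 unit is a doubling. They are given below in the order tumor 23, tumor 24, tumor 25. For each gene named by several probe sets the brightest was used. The range of a gene is its highest minus its lowest value over the 3 tumors. Olfactory receptor genes, 1088 in number, gave a mark for background, set at their 95th percentile on a given array (3.19, 3.44 and 3.39). Above it in all 3 tumors lay 11814 genes. A further 7860 genes lay above it in none. On K8wt replicates 1, 2 and 4 the mark was higher, at 3.75, 3.85 and 3.69, so means of dim lists stand on a higher floor there.

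The median gene had a range of 0.54 over the 3 tumors and of 0.51 over the 3 K8wt arrays. The tumors spread further among the genes that varied most. A range of at least 2 log2 units, which is 4-fold, was reached by 1002 of 22180 genes (4.52%) in the tumors and by 545 genes (2.46%) on the K8wt arrays, and 94 genes reached it in both. Of the 14320 genes above background in at least 1 tumor, those 1002 were 7.00%. Genes above background in no tumor lower the 4.52%, so a list of expressed genes may pass it without standing apart. Tumors 23 and 25 were the most alike pair by the count of large differences: 316 genes differed by at least 2 units between them, against 483 between tumors 23 and 24 and 600 between tumors 24 and 25. Pearson's correlation across genes, which are not independent replicates, was 0.955 for tumors 23 and 25, 0.938 for tumors 23 and 24 and 0.933 for tumors 24 and 25. At the other end, 969 of the 11814 genes above background in all 3 tumors (8.20%) had a range of at most 0.25. Between pairs of tumors, 3957 genes (23 and 25), 3440 (23 and 24) and 3090 (24 and 25) lay that close.

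Part of the difference between tumors followed the level of the genes. Genes with a mean of 8 to 9 were lower in tumor 24 than the mean of the other tumors by a median of -0.58, and genes with a mean of 9 to 10 by -0.60, while dim genes showed no such shift. For the same levels tumor 25 lay above the others by a median of 0.36 and 0.34. A list of bright genes therefore leans to a low value in tumor 24 before anything else is said of it, and its part in each result below was not tested except by cyclic loess, a renormalization that removes shifts with level. Counts of members highest or lowest in a tumor carry the same lean. The share of all genes so placed was not counted, so these counts describe the members and are not shown to exceed it. The range itself also depended on level, with a median of 0.28 for genes with a mean below 3 and of 0.95 for genes with a mean of 7 to 8.

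**Figure D1:**
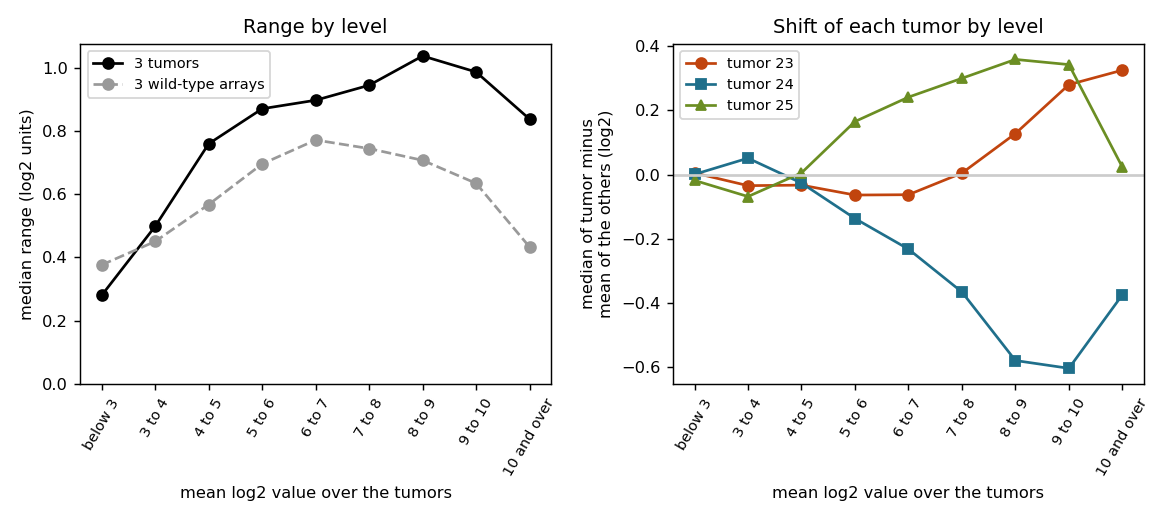
Left, median range (log2 units) of genes by their mean log2 value over the tumors, for the 3 tumors (solid) and the 3 wild-type K8wt arrays (dashed). Right, median difference (log2) of each tumor from the mean of the others, where tumor 24 reaches -0.60 and tumor 25 reaches 0.36 among bright genes.

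Brca1 itself was read at 4.10, 3.74 and 3.79 in the tumors, each a little above the background mark of its array. On the K8wt arrays it read between 2.81 and 2.99, below the marks there (3.69 to 3.85). Readings this near background do not measure a difference between the groups. The files give no probe positions, so it is not known whether the probes lie in the part of the gene that Cre removes, and the reading does not check the labels. Trp53 and Krt5 have no probe set naming them alone and were not analysed here.

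The 5 genes taken as markers of these tumors did not vary alike. Fn1, which encodes the matrix protein fibronectin, read 10.04, 10.17 and 11.70: it was bright in all 3 tumors and highest in tumor 25. Vegfa, the ligand that drives vessel growth, read 10.05, 9.08 and 9.69, the narrowest range of the 5 at 0.97. Mki67, a nuclear protein of dividing cells, read 7.50, 7.92 and 8.53. The 2 basal markers separated the tumors most. Krt14, a basal keratin, read 10.11, 11.64 and 7.63, a range of 4.00 against 0.79 over the K8wt arrays. Trp63, the regulator of basal and squamous epithelium, read 3.72, 6.93 and 4.50, with tumor 24 high and tumor 23 just above background. For Fn1, Vegfa and Mki67 every tumor lay above the highest K8wt array, and for Krt14 tumor 25 lay below the lowest.

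**Figure D2:**
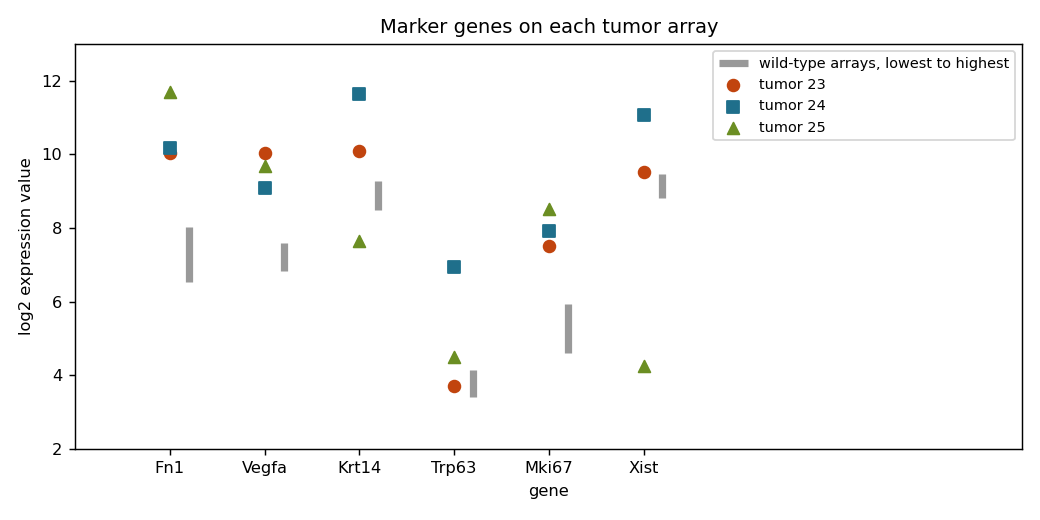
Log2 expression values of the 5 marker genes and Xist on each tumor array (points), beside the lowest to highest value of the 3 wild-type K8wt arrays (grey bars). Fn1 and Vegfa stay between 9.08 and 11.70 in the 3 tumors, whereas Krt14, Trp63 and Xist have ranges of 4.00, 3.21 and 6.83.

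The brightest genes belonged to the cell's basic machinery and were bright in every tumor. The 20 genes with the highest means lay between 12.82 (COX1) and 11.69 (Rps3a1), and the next, COX3, stood at 11.65. They held 3 genes of the mitochondrial genome (COX1, ND4 and ND1, subunits of the respiratory chain) and 2 subunits of ATP synthase (Atp5md and Atp5l). Ribosomal proteins gave 8 symbols (Rplp1, Rpl19, Rps6, Rps12, Rpl41, Rpl4, Rpl38 and Rps3a1), beside Rpl34-ps2, a ribosomal pseudogene, and the elongation factor Eef1a1. Also among them were the small RNAs Rn7sk, which restrains transcription elongation, and Rpph1, the RNA of ribonuclease P, and Ly6e, a surface protein. Vmn1r233 and Cnbd2 completed the 20, named so by the platform annotation. Genes with near-identical copies, as most ribosomal protein genes are, share probes with those copies, so their levels are uncertain. COX1 read 12.64, 13.11 and 12.73, and Rplp1 read 12.76, 12.45 and 12.72. The widest of the 20 was Rpph1 at 12.03, 12.51 and 11.12, a range of 1.39. Levels of different probe sets do not compare as amounts of RNA.

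High level did not mean a small range. Of 1059 genes with a mean of at least 8, 35 had a range of at most 0.25 and 87 a range of at least 2, with a median range of 0.99. The 10 with the smallest range began with Rpl28, a ribosomal protein, at 11.14, 11.21 and 11.18. They went on with Ogdh, an enzyme of the citric acid cycle (8.58, 8.61 and 8.66), Dennd10 (8.01, 8.03 and 8.09) and B230219D22Rik (8.05, 8.02 and 8.12). Samhd1, which degrades nucleotides and limits viral replication, read 8.22, 8.25 and 8.13, and Lgmn, a lysosomal protease, 8.11, 8.09 and 7.99. Atf6, a sensor of stress in the endoplasmic reticulum, read 8.35, 8.39 and 8.48. The last were 4833439L19Rik, Paip2, a repressor of translation (8.58, 8.57 and 8.43), and Txnip, a regulator of glucose uptake and redox state (9.85, 9.70 and 9.84), with Dctn4 the first left out at 0.16. This rank depended on the scaling: under the other scalings tried, the ranges of these 10 genes reached at most 0.34 for Txnip and 0.61 for 4833439L19Rik. Of the 969 genes of small range, 404 kept it after a further quantile normalization and 576 after cyclic loess, whereas 911 and 853 of the 1002 genes of large range kept theirs.

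Among the 1002 genes of large range, 1 tumor stood at least 2 units above both others in 290 and at least 2 units below both in 107. The highest value was in tumor 23 for 364 of them, in tumor 24 for 341 and in tumor 25 for 297. The lowest was in tumor 24 for 498, in tumor 25 for 349 and in tumor 23 for 155. Counted by tumor, 100 genes (0.451% of all) were at least 2 units higher in tumor 23 than in both others and 3 (0.0135%) that much lower. Tumor 24 had 121 such genes above (0.546%) and 55 below (0.248%). Tumor 25 had 69 above (0.311%) and 49 below (0.221%). In 291 of the 1002 genes the lowest tumor was below its background mark, so the true difference may be larger than the one read. The 10 largest ranges ran from 7.27 to 5.79: Clca3a2, Atp2a1, Mylpf, Xist, Actn3, Des, Xirp2, Sln, Tnnt3 and Car3, with Gm4951 next at 5.60. Of these 10, 7 encode parts of the muscle fibre (Atp2a1, Mylpf, Actn3, Des, Xirp2, Sln and Tnnt3).

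**Figure D3:**
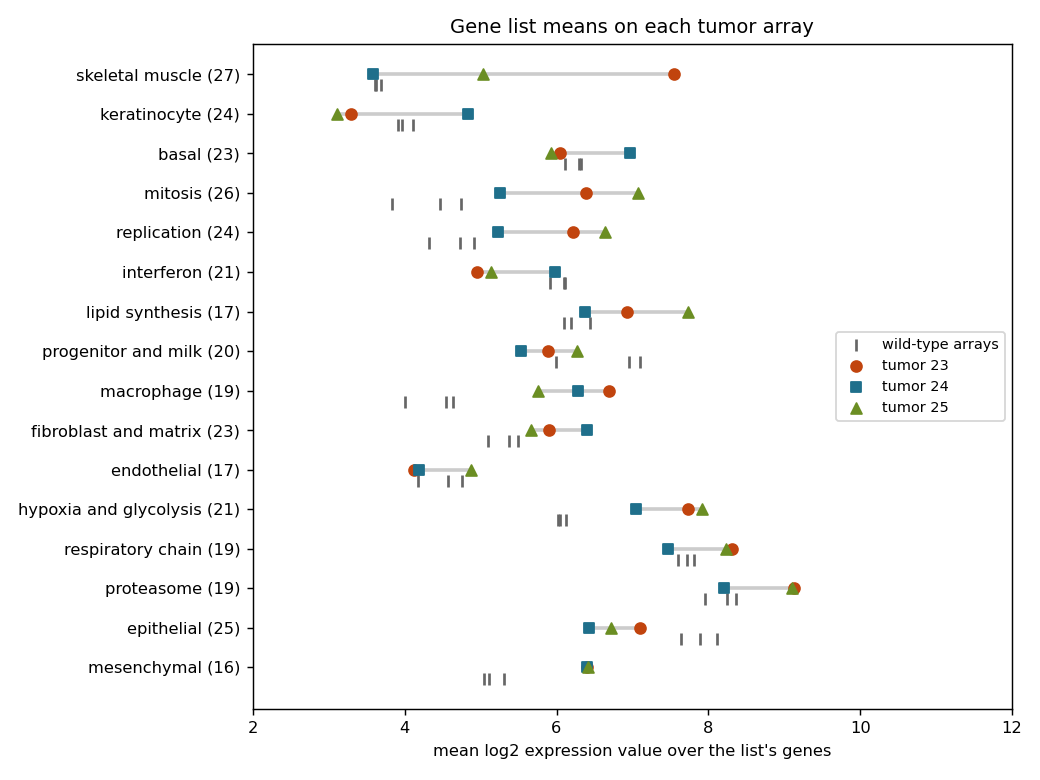
Mean log2 expression value over the genes of 16 lists (number of genes measured in parentheses) on each tumor array, with the 3 wild-type K8wt arrays as grey ticks below each line. Skeletal muscle genes spread from 3.58 in tumor 24 to 7.55 in tumor 23, whereas the mesenchymal list lies between 6.40 and 6.41 in all 3 tumors.

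Of the 51 lists of genes compared, skeletal muscle made the widest difference between the tumors. Its 27 genes had means of 7.55, 3.58 and 5.03, and of 3.61 to 3.69 on the K8wt arrays. Tumor 23 was highest for 27 of 27 genes and stood at least 2 units above both others for 18. The median range was 4.37, against 0.36 on the K8wt arrays, and 21 of 27 genes had a range of at least 2, which 4.52% of all genes had. Atp2a1, the calcium pump of fast fibres, read 10.43, 3.32 and 7.70. Mylpf, a myosin light chain, read 9.16, 2.33 and 5.86, and Acta1, the actin of the muscle filament, 11.07, 5.69 and 8.61. For these genes tumor 25 lay between the others, well above tumor 24, whose values were near or below background except for Acta1. Actn3 (9.35, 3.20 and 5.89) and Tnnt3 (9.37, 3.56 and 6.06), which encode an actinin and a troponin of fast fibres, kept the same order. The muscle regulators were likewise highest in tumor 23. Myog, which drives muscle cells to differentiate, read 5.24, 3.67 and 3.39, and Myod1, which commits cells to the muscle fate, 3.75, 2.91 and 3.23.

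Of the 100 genes at least 2 units higher in tumor 23 than in both others, 18 were on the muscle list. Of the 8 furthest above both other tumors, 7 encode muscle proteins. Sln, a regulator of the calcium pump, read 7.56, 1.74 and 2.26, and Des, the muscle intermediate filament desmin, 9.96, 3.97 and 4.92. Cox8b, the muscle form of a cytochrome oxidase subunit, read 7.28, 2.10 and 2.88. Ankrd23 (10.61, 6.15 and 6.18), Mybpc2 (8.71, 3.12 and 4.55), Xirp2 (8.18, 2.26 and 4.13) and Nrap (7.17, 3.18 and 3.28) belong to the sarcomere and its anchors. The eighth was Saa3, an acute phase protein, at 9.99, 4.71 and 4.94. Car3, a carbonic anhydrase of muscle and fat, read 8.66, 2.87 and 6.38. Adipoq, a hormone made by fat cells alone, lay below background in all 3 tumors at 2.61, 2.50 and 2.43. The 15 adipocyte genes, Car3 among them, had means of 4.19, 3.66 and 3.96, and of 4.24 to 4.53 on the K8wt arrays. Of these genes, 5 lay above background in all 3 tumors and 9 in at least 1. The source of the muscle RNA was not tested.

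**Figure D4:**
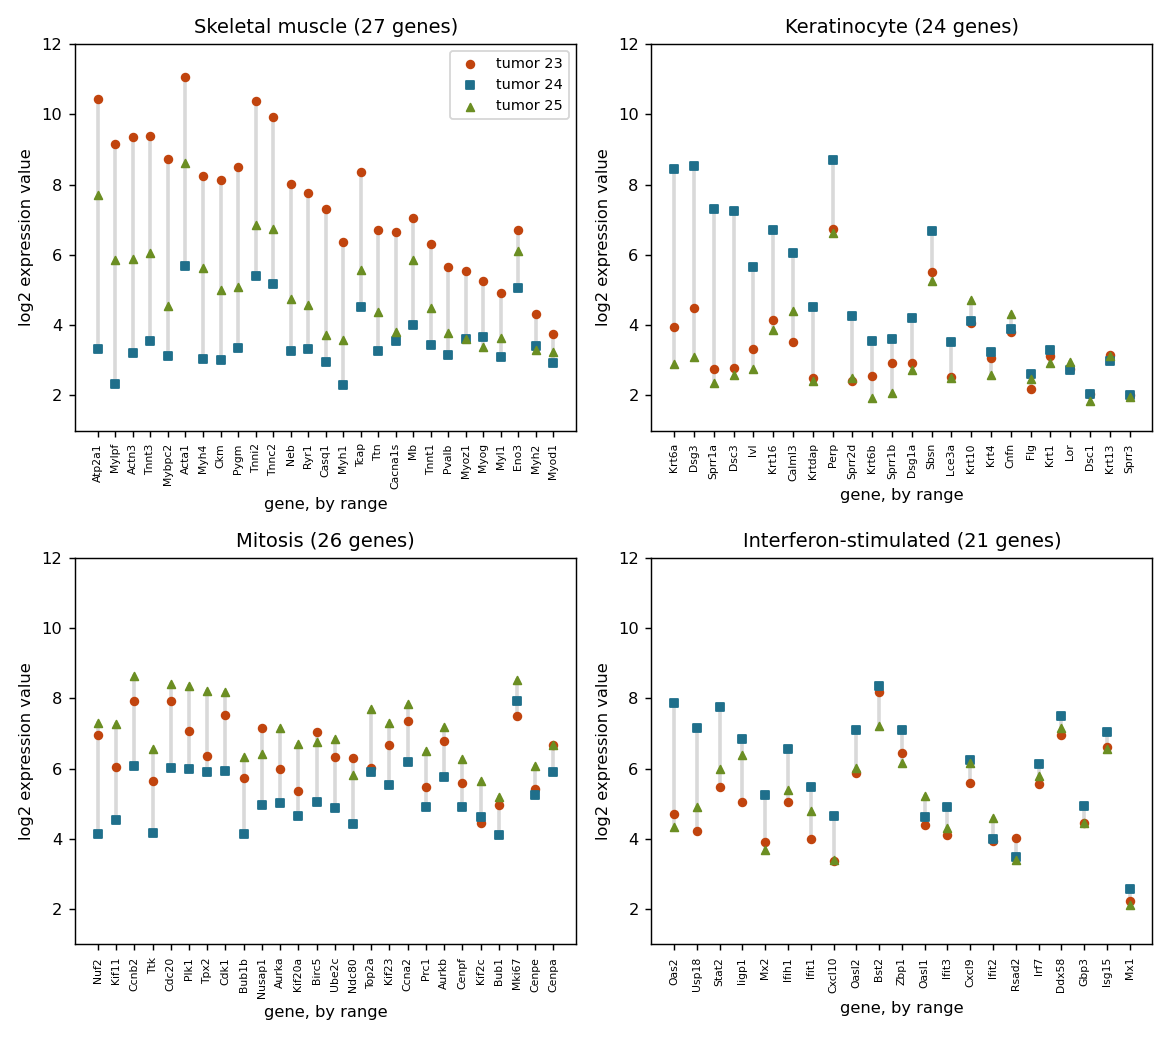
Log2 expression values of each gene of 4 lists on the arrays of tumors 23, 24 and 25, with genes ordered by range and grey lines joining the lowest to the highest. Muscle genes are highest in tumor 23 in 27 of 27, keratinocyte genes in tumor 24 in 18 of 24, mitosis genes in tumor 25 in 22 of 26 and interferon-stimulated genes in tumor 24 in 18 of 21.

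Promoters of the muscle genes are shown because the list moved together. RefSeq gives a start for 20 of the 27 genes in build GRCm38.p6, and the 250 bases before each start were searched on both strands. The letters CAGCTG, a form of the E-box that muscle regulators bind, were in 9 of 20 promoters (45.0%) and in 12.2% of 16990 promoters of all genes. The letters TATAAA, to which the general transcription machinery binds, were in 5 of 20 (25.0%) and in 11.9% of all. The 2 below hold both motifs, in capitals, and end at the base before the start. For Acta1 (chr8:123894776-123895025, minus strand) CAGCTG begins at position -221 and TATAAA at -7. For Myh4, a fast myosin heavy chain that read 8.25, 3.05 and 5.62 (chr11:67237562-67237811, plus strand), TATAAA begins at -213 and -31 and, on the opposite strand, at -179, and CAGCTG at -67. A match describes letters, not binding.
Acta1: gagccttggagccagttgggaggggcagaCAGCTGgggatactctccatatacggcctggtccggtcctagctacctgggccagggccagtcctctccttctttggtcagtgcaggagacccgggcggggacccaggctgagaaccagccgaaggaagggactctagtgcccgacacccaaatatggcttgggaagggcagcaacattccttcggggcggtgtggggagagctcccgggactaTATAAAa
Myh4: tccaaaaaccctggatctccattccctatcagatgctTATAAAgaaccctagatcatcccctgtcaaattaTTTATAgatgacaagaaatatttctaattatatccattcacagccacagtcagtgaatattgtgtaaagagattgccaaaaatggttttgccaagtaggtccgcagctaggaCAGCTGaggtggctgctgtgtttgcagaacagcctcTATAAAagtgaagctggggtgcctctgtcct

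The mean of basal genes was highest in tumor 24. Over 23 basal and myoepithelial genes it was 6.04, 6.97 and 5.92, with 15 highest in tumor 24. A range of at least 2 was reached by 10 of 23 (43.5%), against 4.52% of all genes. Krt17, a keratin of basal and stressed epithelium, read 9.39, 10.78 and 7.05 and so followed Krt14. Snai2, a transcription factor of basal cells, read 4.07, 7.17 and 4.96. Egfr, the receptor for epidermal growth factor, read 6.68, 8.19 and 5.33, and Jag1, a Notch ligand, 5.88, 8.07 and 5.30. Col17a1 and Lama3, parts of the structure that anchors basal cells, read 4.04, 6.15 and 3.94 and 5.13, 7.20 and 5.44. Contractile genes of myoepithelium varied by member. Acta2 (7.32, 7.79 and 6.35) was highest in tumor 24, Cnn1 (6.92, 4.14 and 6.46) was lowest there, and Myh11 (4.54, 4.31 and 4.10) had a range of 0.43.

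Genes of stratified epithelium were highest in tumor 24 for 18 of 24. The mean of 24 such genes was 3.30, 4.83 and 3.12, and between 3.92 and 4.11 on the K8wt arrays. Of the 24, 7 stood at least 2 units above both other tumors in tumor 24, as 0.546% of all genes did. A range of at least 2 was reached by 9 (37.5%), against 4.52% of all genes. Krt6a, a keratin of activated keratinocytes, read 3.95, 8.45 and 2.88. Dsg3 (4.50, 8.52 and 3.08) and Dsc3 (2.78, 7.25 and 2.59) are cadherins of the desmosome, the junction that holds squamous cells together. Sprr1a (2.75, 7.29 and 2.36) and Ivl (3.32, 5.65 and 2.75) encode parts of the cornified envelope, and Krt16 read 4.13, 6.72 and 3.85. Perp, a desmosome protein and p53 target, read 6.72, 8.71 and 6.63. Late markers of the skin surface lay below background in every tumor: Lor read 2.75, 2.73 and 2.96, Flg 2.17, 2.62 and 2.47, and Krt1 3.12, 3.29 and 2.93. Of the 24 genes, 7 were above background in none of the tumors and 6 in all 3.

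Interferon-stimulated genes were also highest in tumor 24. The mean of 21 genes was 4.96, 5.98 and 5.14, against 5.91 to 6.11 on the K8wt arrays, and 18 of 21 were highest in tumor 24. Oas2, a sensor of double-stranded RNA, read 4.71, 7.86 and 4.33. Usp18, which restrains interferon signalling, read 4.23, 7.15 and 4.92, and Stat2, a factor that carries the signal to the nucleus, 5.49, 7.74 and 5.98. The GTPase gene Gm4951, which was not on the list, read 2.98, 8.58 and 4.34. Not every member took part: Isg15 read 6.60, 7.04 and 6.56, a range of 0.48. Of the antigen presentation genes, Nlrc5 (4.84, 6.58 and 3.94) and Tap1 (7.57, 8.82 and 7.14), a regulator and a peptide transporter of class I, were also highest in tumor 24. Psmb8, a subunit of the immunoproteasome, was highest in tumor 23, at 7.88, 7.03 and 6.63.

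The genes furthest above both other tumors in tumor 24 were headed by 2 probe sets named for microRNA genes. Mir5124a read 2.75, 7.87 and 2.71 and Mir3097 3.11, 8.51 and 3.42. On the K8wt arrays both lay above 5. The probe sets read RNA of the locus, and the mature microRNAs were not measured. In RefSeq (GRCm38.p6) Mir5124a lies on chromosome 13 (40865801 to 40865820, plus strand) within the span of Gcnt2, and Mir3097 on chromosome 5 (5p arm 35021050 to 35021072, 3p arm 35021094 to 35021115, plus strand) within that of Rgs12. The mature sequences are given to identify them, with the seed (bases 2 to 8) in capitals, and the 3 seeds differ.
mmu-miR-5124a: gGUCCAGUgacuaagagcau
mmu-miR-3097-5p: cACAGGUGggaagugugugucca
mmu-miR-3097-3p: cUCAGACCuuucuaccugucag

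Brinp3, of the same 8, read 2.31, 6.40 and 2.39 and completed them with Sprr1a, Krt6a, Dsc3, Gm4951 and Dsg3. Furthest below in tumor 24 were the muscle genes Atp2a1 and Mylpf, Car3, Snorc, a proteoglycan of cartilage (8.54, 4.46 and 8.65), and the histone gene H4f16 (8.46, 4.69 and 9.19).

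Genes of cell division were ordered tumor 25, tumor 23, tumor 24. The mean of 26 mitosis genes was 6.39, 5.26 and 7.07. A range of at least 2 was reached by 12 of 26 (46.2%), against 4.52% of all genes. Tumor 25 was highest for 22 of 26 and tumor 24 lowest for 24. Their median difference in tumor 24 from the mean of the others was -1.50, against -0.23 for all genes with a mean of 6 to 7. All 26 lay above background in all 3 tumors. Nuf2, a kinetochore protein, read 6.95, 4.14 and 7.30, Kif11, the motor that pushes spindle poles apart, 6.03, 4.54 and 7.26, and Ccnb2, a mitotic cyclin, 7.93, 6.09 and 8.65. Plk1, a mitotic kinase, read 7.07, 5.98 and 8.34. Mki67 was one of 2 members that were not lowest in tumor 24. The K8wt arrays also spread in this list, with means from 3.83 to 4.75. After cyclic loess the means were 6.45, 5.41 and 7.00, in the same order.

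Replication genes were likewise low in tumor 24, and so was the mean of histone genes, many of them near or below background. The mean of 24 replication genes was 6.22, 5.23 and 6.64, with 21 lowest in tumor 24. A range of at least 2 was reached by 7 (29.2%), against 4.52% of all genes. Mcm2 (7.03, 5.63 and 8.27) and Mcm3 (7.35, 5.76 and 8.11) encode parts of the helicase that opens DNA, and Rrm1 (5.68, 4.80 and 7.02) a subunit of the enzyme that makes nucleotides. Gins2 (6.26, 3.95 and 5.59), a partner of that helicase, was highest in tumor 23. Tyms, a nucleotide enzyme, had nearly the same value in all 3 tumors at 6.44, 6.28 and 6.16. Of 29 histone genes, 7 lay above background in all 3 tumors and 18 in at least 1. Their means were 4.30, 3.35 and 4.20, with tumor 24 lowest for 19 and highest for 7. With values floored at background, the difference between tumors 23 and 24 fell from 0.95 to 0.54. A range of at least 2 was reached by 9 (31.0%), against 4.52% of all genes. At least 2 units lower in tumor 24 than in both others were 5, as were 0.248% of all genes. H2ac21 read 6.10, 2.95 and 6.22 and H2ac20 5.81, 3.09 and 5.61, both below background in tumor 24. Histone genes are near copies of each other, so single members are uncertain. Among 22 genes of homologous recombination and checkpoints none had a range of at least 2, against 4.52% of all genes. The list is too short for that to set it apart. Exo1, a nuclease that trims DNA ends, was widest at 5.82, 5.21 and 6.81, and Brca2, a partner in the pathway, read 4.99, 5.52 and 5.16.

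Promoters of the mitosis genes often hold the letters of 2 known cell cycle elements, the CCAAT box and the CHR (TTTGAA or TTCGAA). In the 250 bases before the start, CCAAT was in 17 of 22 mitosis promoters (77.3%) and in 35.6% of all 16990. TTTGAA was in 8 of 22 (36.4%) and 14.3% of all, and TTCGAA in 2 of 22 (9.09%) and 1.51% of all. The 2 shown belong to genes with the largest ranges of the list and hold CCAAT and TTTGAA, in capitals. For Kif11 (chr19:37376132-37376381, plus strand) both lie on the opposite strand, at -45 and -19, where they read as ATTGG and TTCAAA. For Ccnb2 (chr9:70421555-70421804, minus strand) CCAAT begins at -87, -54 and -21, and TTTGAA at -167.
Kif11: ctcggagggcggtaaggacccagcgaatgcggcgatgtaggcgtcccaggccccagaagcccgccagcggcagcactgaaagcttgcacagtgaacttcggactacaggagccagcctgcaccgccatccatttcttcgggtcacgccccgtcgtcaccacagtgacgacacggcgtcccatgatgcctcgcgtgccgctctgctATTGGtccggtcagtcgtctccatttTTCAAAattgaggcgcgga
Ccnb2: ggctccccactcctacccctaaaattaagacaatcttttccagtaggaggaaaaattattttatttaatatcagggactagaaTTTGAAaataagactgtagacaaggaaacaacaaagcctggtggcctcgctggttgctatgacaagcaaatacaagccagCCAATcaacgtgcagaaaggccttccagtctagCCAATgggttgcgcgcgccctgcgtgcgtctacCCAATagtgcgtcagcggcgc

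Of 21 glycolysis and low-oxygen genes, 20 lay above background in all 3 tumors, with list means of 7.74, 7.05 and 7.92. Of the list, 1 gene (4.76%) had a range of at least 2, near the 4.52% of all genes. This was Egln3, an oxygen-sensing hydroxylase and itself a target of low oxygen, which read 8.41, 6.50 and 9.99. Pfkl, an enzyme of glycolysis, read 6.45, 5.40 and 7.40. Adm, a vessel-widening peptide, read 8.13, 6.27 and 8.11, and Gapdh, a glycolytic enzyme, 11.14, 11.00 and 11.59. Tumor 24 was lowest for 18 of 21 genes. After cyclic loess it was lowest for 14, and its list mean was still lowest, at 7.74, 7.25 and 7.82. The letters ACGTG, the core bound by hypoxia-inducible factors, were in 11 of 19 promoters of the list (57.9%) and in 18.1% of all, and GCGTG in 11 of 19 (57.9%) and 34.2% of all.

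Tumor 24 was lowest in the nuclear genes of the respiratory chain and highest in the mitochondrial ones. The mean of 19 nuclear genes was 8.31, 7.46 and 8.24, with tumor 24 lowest for 18. Atp5a1, an ATP synthase subunit, read 10.03, 8.82 and 10.74 and Ndufb5, of complex I, 8.01, 6.41 and 7.11. The 10 genes of the mitochondrial genome had means of 10.66, 11.00 and 9.83. Tumor 24 was highest for 8 of them and tumor 25 lowest for 9. Proteasome genes, which encode the protein-degrading complex, followed the nuclear order at 9.13, 8.21 and 9.11, with tumor 24 lowest for 19 of 19. None had a range of at least 2, against 4.52% of all genes, in a list too short for that to set it apart. Psma1 read 9.66, 8.48 and 10.26. Cyclic loess left tumor 24 lowest for 13 of 19 respiratory and 17 of 19 proteasome genes, with differences of 0.61 between highest and lowest tumor in both lists in place of 0.85 and 0.92. Ribosomal protein genes were highest in tumor 23 for 22 of 28 (8.50, 7.82 and 7.97), and after cyclic loess the lowest mean moved from tumor 24 to tumor 25.

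Lipid and sterol synthesis genes were highest in tumor 25, with means of 6.93, 6.38 and 7.73 over 17 genes and 14 of 17 highest there. Thrsp, a regulator of fatty acid synthesis, read 8.51, 6.52 and 9.90. Sqle, an enzyme of sterol synthesis, read 7.94, 7.16 and 9.80, Scd1, which desaturates fatty acids, 7.84, 7.09 and 9.36, and Fasn, the fatty acid synthase, 7.36, 7.75 and 9.33. The K8wt arrays spread widely in this list too, with a median range of 1.25 against 1.63 in the tumors.

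Luminal genes split by kind. Luminal progenitor and milk genes had means of 5.88, 5.53 and 6.28 over 20 genes. The caseins were highest in tumor 25: Csn2 read 4.38, 4.67 and 7.06 and Csn1s1 4.13, 3.50 and 6.40, ranges of 2.68 and 2.90 that were similar to the K8wt ranges of 2.05 and 3.66. Lalba, a subunit of lactose synthase, read 7.18, 7.94 and 9.11. Kit, a receptor of luminal progenitors, was bright throughout at 8.69, 8.64 and 9.75, and Ehf, an epithelial transcription factor, hardly differed at 7.17, 7.19 and 6.89. Hormone-sensing genes were dim, with means of 3.78, 4.31 and 3.91 over 10 genes against 5.57 to 5.99 on the K8wt arrays. Esr1, the estrogen receptor, read 4.09, 4.14 and 4.03, and Pgr, the progesterone receptor, lay below background in all 3 tumors. Foxa1, a partner of the estrogen receptor, read 3.09, 5.12 and 5.46 and was one of the 3 genes at least 2 units lower in tumor 23. The others were Slc34a2, a phosphate transporter (3.06, 6.43 and 5.27), and Adamts18, a matrix protease (3.28, 5.47 and 6.26). Next came Clock, of the circadian clock (6.49, 8.67 and 8.46), and Gm5886 (1.78, 3.67 and 4.14).

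Epithelial genes were expressed in all 3 tumors, at unequal levels. The mean of 25 epithelial genes was 7.10, 6.43 and 6.72, and 24 lay above background in every tumor. Cdh1, the adhesion protein E-cadherin, read 9.49, 8.93 and 9.74. The luminal keratins Krt18 (10.18, 7.47 and 9.72) and Krt8 (9.41, 7.76 and 9.19) were lowest in tumor 24, and Krt19 (5.91, 4.83 and 2.05) lay below background in tumor 25. Dsp, the core protein of desmosomes, went the other way at 6.18, 8.37 and 6.41. Among claudins, the proteins of tight junctions, Cldn6 read 6.56, 3.45 and 2.36 and Cldn7 7.24, 5.13 and 6.55. S100 genes, which encode small calcium-binding proteins, were highest in tumor 23 for 14 of 16. S100a8 read 8.46, 5.72 and 6.31 and S100a1 9.84, 7.37 and 8.34.

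In tumor 25, 2 transcripts that were bright in the others were far dimmer, though above the background mark of that array (3.39). Clca3a2, a regulator of chloride channels, read 11.76, 9.90 and 4.49, the widest range of all genes. Xist, the RNA that silences 1 X chromosome in female cells, read 9.52, 11.07 and 4.24, and 8.82 to 9.48 on the K8wt arrays. Serping1, an inhibitor of complement (7.20, 7.05 and 3.55), Serpina3n, a protease inhibitor (8.08, 7.49 and 4.13), and 2610203C20Rik were the next furthest below. Of the 8 genes furthest above in tumor 25, Cytl1, a secreted protein found in cartilage, came first at 4.83, 4.75 and 9.86. Angpt1, a ligand that steadies vessels, read 3.26, 2.55 and 7.35, and Slc6a15, an amino acid transporter, 4.49, 4.19 and 8.27. Lpar4, a receptor for lysophosphatidic acid, read 8.74 in tumor 25 and 5.05 or less in the others, and Dmp1, a protein of mineralized matrix, 3.67, 2.88 and 7.23. Stk32b (4.23, 4.75 and 8.35), Bpifb1 (2.69, 2.56 and 6.29) and Smr2 (2.61, 2.66 and 5.87) completed the 8. Of 14 cartilage and bone genes, 10 were highest in tumor 25. Cnmd, an inhibitor of vessel growth in cartilage, read 7.77, 5.13 and 8.05, and Col11a1, a cartilage collagen, 6.49, 5.47 and 7.91. Acan, the main proteoglycan of cartilage, lay below background in all 3 tumors.

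Matrix genes divided the tumors by member, not as a block. The mean of 23 fibroblast and matrix genes was 5.89, 6.41 and 5.66. Among fibrillar collagens, 3 were highest in tumor 24 and lowest in tumor 25: Col1a1 read 7.22, 8.74 and 4.98, Col1a2 6.08, 8.29 and 4.40, and Col3a1 6.64, 7.78 and 4.98. Others had other orders: Col5a1 (5.01, 5.60 and 5.24) was lowest in tumor 23, and Col2a1 (4.34, 4.81 and 5.99) and Col11a1 were highest in tumor 25. Mfap5, of elastic fibres, read 6.93, 8.20 and 3.62. Sfrp1, a secreted Wnt inhibitor, and Fbln2, a matrix glycoprotein, had another order at 6.53, 5.12 and 8.50 and 7.71, 8.49 and 9.91. Bgn, a small proteoglycan, was bright in all 3 at 10.25, 11.20 and 11.84. The 16 mesenchymal genes had means of 6.40, 6.40 and 6.41, and the order of those means changed with the scaling. Within that equal mean, Twist1, a transcription factor of mesenchymal change, read 7.26, 5.90 and 8.66, Snai2 was highest in tumor 24, and Tgfbi, a matrix protein induced by TGF-beta, read 7.74, 9.03 and 6.65.

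Among matrix proteases, each tumor was highest for a different enzyme. All 26 proteases and inhibitors lay above background in every tumor. A range of at least 2 was reached by 7 (26.9%), against 4.52% of all genes. The collagenase Mmp13 read 3.61, 7.77 and 5.30, highest in tumor 24. Mmp7, an epithelial protease, read 7.19, 3.96 and 4.09, highest in tumor 23, and the gelatinase Mmp9 4.55, 4.28 and 6.96, highest in tumor 25. Adam12 read 3.81, 6.36 and 3.74. The lysosomal proteases Ctsb (10.64, 10.54 and 10.17) and Ctsz (9.49, 9.41 and 10.06) were bright in all 3.

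Of the host cell types, macrophages had all their genes above background, and T, B and neutrophil lists had a part of theirs. The mean of 19 macrophage genes was 6.69, 6.28 and 5.75, and 4.00 to 4.64 on the K8wt arrays. Each gene was above background in each tumor, with 15 highest in tumor 23 and 15 lowest in tumor 25. C1qa, a complement subunit made by macrophages, read 9.33, 8.91 and 8.13, Tyrobp, an adaptor of myeloid receptors, 9.17, 8.10 and 7.34, and Lyz2, a lysozyme, 8.29, 7.22 and 6.20. Cd68, a lysosomal marker, varied less at 8.28, 8.26 and 7.85. Of 19 T and NK cell genes, 8 lay above background in all 3 tumors. None had a range of at least 2, against 4.52% of all genes, in a list too short for that to set it apart. The list means were 3.57, 3.72 and 3.44, and 3.89 to 4.24 on the K8wt arrays. These means lie near the background marks, which were lower in the tumors (3.19 to 3.44) than on the K8wt arrays (3.69 to 3.85). How far the marks set this difference was not tested. Cd3g, a subunit of the T cell receptor complex, read 5.42, 4.80 and 4.25. Of 14 B and plasma cell genes 3 lay above background in all tumors, and Ms4a1, a surface marker of B cells, lay below background in each. Their means were 3.90, 3.85 and 3.71, and 3.79 to 4.02 on the K8wt arrays. Of 10 red cell genes 2 were measured, both below background. Of 15 neutrophil genes 8 lay above background in all 3 tumors, with means of 4.72, 4.39 and 4.41, and of 3.72 to 4.42 on the K8wt arrays. Il1b, an inflammatory cytokine, read 7.88, 8.45 and 5.61, and the receptor Csf3r 4.20, 5.56 and 3.82, while Ly6g and Mpo were below background. Endothelial genes were highest in tumor 25 for 13 of 17, with means of 4.12, 4.19 and 4.88, and of 4.18 to 4.76 on the K8wt arrays. Cdh5, the cadherin of vessels, read 5.42, 5.98 and 7.42 and Eng, a receptor of dividing endothelium, 3.79, 4.64 and 5.72. How far the share of host cells set the other programs was not tested.

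Growth factors and their receptors differed by single genes. Of 26 receptor kinases, 3 (11.5%) had a range of at least 2, against 4.52% of all genes and 7.00% of genes above background in at least 1 tumor. That count is too small to set the list apart. Fgfr2, a fibroblast growth factor receptor, read 3.60, 6.42 and 2.87, Egfr was highest in tumor 24 as given above, and Flt1, a receptor for Vegfa, read 4.24, 6.30 and 6.04. Fgfr1 was bright in all, at 8.28, 9.68 and 10.17. Of 32 ligands, Ptn (5.10, 4.62 and 7.37) and Mdk (5.92, 5.38 and 7.76), which are related heparin-binding growth factors, were highest in tumor 25, as was Bmp2 (3.92, 3.09 and 5.53). Hgf, the ligand of Met, read 3.25, 4.67 and 2.31. In the Wnt and Notch list of 33 genes, Jag1 alone (3.03%) had a range of at least 2, against 4.52% of all genes. Nkd2, an inhibitor of Wnt signalling, was the brightest there and varied little, at 9.54, 9.26 and 9.68.

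Transcription factors of development varied by gene as well. Sox10, a transcription factor of neural crest and of some mammary progenitors, read 7.53, 6.12 and 8.31. Sox2, a factor of stem cells, read 3.27, 2.85 and 5.82, below background in tumor 24. Tfap2b read 2.87, 4.93 and 1.91, whereas its relative Tfap2a read 7.24, 7.55 and 7.40. Of 26 genes often amplified or lost in tumors, 2 (7.69%) had a range of at least 2. That share was near the 7.00% of genes above background in at least 1 tumor. Mdm4, an inhibitor of p53, read 5.61, 6.80 and 4.49, a range of 2.31, and the K8wt arrays had one of 2.34. Ccnd2, a cyclin, read 6.70, 8.98 and 6.86. Myc, the growth regulator, read 7.63, 8.57 and 8.41, and Cdk4, a cell cycle kinase, 8.70, 8.62 and 8.85. Cdkn2a, a tumor suppressor locus, read 6.10, 7.86 and 7.70. Among p53 targets, Cdkn1a, which halts the cell cycle, read 8.05, 8.48 and 6.93, and Trp53inp1 6.08, 7.48 and 5.28.

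Of 33 chemokines, 3 (9.09%) had a range of at least 2, against 4.52% of all genes and 7.00% of genes above background in at least 1 tumor. A count of 3 is too small to set the list apart from either share. Cxcl14, a chemokine made by epithelium, read 7.91, 6.93 and 5.14, and Ccl8 and Ccl6, which attract myeloid cells, 7.35, 7.11 and 4.96 and 7.12, 6.23 and 4.73: all 3 were lowest in tumor 25. Among 319 solute carriers, 19 (5.96%) had a range of at least 2, near the 4.52% of all genes. Of these Slc38a3, a glutamine transporter, read 6.39, 6.30 and 9.02. Slc3a2, the heavy chain of amino acid transporters, was bright throughout at 9.26, 9.36 and 10.24. Hox genes, which set position along the body, were mostly dim, with 5 of 36 above background in all 3 tumors. Hoxc6 read 2.85, 5.59 and 2.39 and Hoxa2 2.62, 3.19 and 4.81. Laminins of vessel and basement membrane, Lamc1 (5.95, 6.21 and 8.06) and Lamb1 (5.58, 6.55 and 7.58), were highest in tumor 25, whereas Itga2, a collagen receptor, was highest in tumor 24 at 6.11, 8.06 and 4.74.

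Of 19 chaperones none had a range of at least 2, against 4.52% of all genes, in a list too short for that to set it apart. Tumor 25 was highest for 16 and tumor 24 lowest for 17, with means of 8.33, 7.72 and 8.69. After cyclic loess tumor 24 was lowest for 14. The difference between tumors 25 and 24 was then 0.56 in place of 0.97. Hspa1a, an inducible heat shock protein, read 6.38, 4.57 and 6.45, and Hsp90b1, a chaperone of the endoplasmic reticulum, 10.82, 10.66 and 11.58. Of 20 immediate early genes 1 (5.0%) had a range of at least 2, near the 4.52% of all genes. This was Nr4a1, a nuclear receptor, at 7.14, 6.02 and 8.49. Fos (4.20, 3.80 and 4.05) and Klf4 (5.31, 5.42 and 5.42), both transcription factors, varied by 0.40 and 0.11. Among 20 translation and nucleolar genes, Tpt1 stood out in tumor 23 at 10.64, 8.17 and 8.24, while Ncl, the nucleolar protein nucleolin, read 9.17, 8.47 and 10.08.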

How the data were processed

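Total RNA was amplified with a NuGEN Ovation V2 kit and labelled with biotin, per the labels' protocols, and read on 6 arrays. The authors deposited log2 expression values for 41345 probe sets; the submitters' processing notes name RMA, which equalizes the arrays' distributions and compresses dim genes, and oligo, with versions not given in the sources used here. The platform annotation named 1 gene for 23521 probe sets, several for 1814 and none for 16010; 23328 of the 23521 matched a RefSeq gene of GRCm38.p6. For the 1082 genes with more than 1 probe set, the one with the highest mean over the 6 arrays was used, with no other filter. No test was made, since each tumor has 1 array, so the precision is limited by the count of arrays. Counts were checked on simulated data. The tumors, lists and named genes were chosen with earlier results of these data known. Named were the 5 markers, Brca1, the 20 highest means, the 10 largest ranges and the 10 smallest at a mean of at least 8, the 8 genes furthest above and 5 furthest below per tumor, and in each list up to 4 widest and 2 brightest members, with further members by role. Python 3.11.15, R 4.3.3 and limma 3.58.1 (quantile and cyclic loess alternatives) were used. Alternatives were other probe sets or their mean, 3 scalings, a mean of at least 5, values floored at background, the 99th percentile as background and leaving out each tumor.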

Additional observations from a re-analysis of the deposited data

How the results depend on the processing

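The gene counts and list differences were recomputed under other probe sets, scalings and filters, and the count of small ranges also under another background mark. None of 14 list differences, picked from the 51 lists, reversed under any of 7 settings. The 14 had wide differences, from 0.75 to 3.97, between tumors fixed as highest and lowest in the main setting. A reversal was therefore unlikely from the start, and its absence is no support. Of the 14, 13 moved by less than the SD over the tumors under all 7. The exception was the keratinocyte list, whose difference was 3.63 with genes of a mean of at least 5, in place of 1.71. That filter favours tumor 24, since Dsg3 and Krt6a pass it through their tumor 24 values. The SD is a wide allowance. Within it, cyclic loess took the hypoxia difference from 0.87 to 0.57 and the proteasome difference from 0.92 to 0.61. Of all 51 lists, 3 reversed under some setting, the mesenchymal list and the B cell and red cell lists near background. All 187 listed genes of large range kept their direction under each of 6 settings that held them (135 were held with a mean of at least 5, with their direction kept), and 166 kept a range of at least 2 after cyclic loess. These genes were chosen for a range of at least 2, so a reversal was unlikely from the start. Their kept directions are therefore no support. Averaging all probe sets of a gene left 12 of the 20 highest means. With genes of a mean of at least 5, 642 genes had a large and 437 a small range; 41 were high and 1 low in tumor 23, 51 high in tumor 24 and 33 high in tumor 25. With the 99th percentile as background, 566 genes had a small range. Leaving out each tumor in turn compares pairs, which gave 316 to 600 genes of large and 3090 to 3957 of small range. Of the remaining pair, 201 to 308 genes were higher and 115 to 175 lower in tumor 23, 175 to 310 higher and 290 to 308 lower in tumor 24, and 115 to 290 higher and 201 to 310 lower in tumor 25. Of the 20 highest means, 17 to 18 remained. No paired analysis was possible because the replicate numbers of the tumors and the K8wt samples do not match. The list differences are between fixed tumors, so leaving out a tumor gives no other value. No scanner files were used, so signal over background rests on the olfactory receptor mark.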

Other observations

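Neighbouring genes were also compared in chromosome order, over genes above background in at least 1 tumor, in overlapping windows of 20 genes. Of 41724 windows over the 3 tumors, 6 had a median difference of at least 1 from the mean of the others, and the stretches below are those windows, chosen by that value, so their counts describe the choice and carry no test. On chromosome 14, 20 neighbours from Prxl2a to Gch1 were higher in tumor 23 than the mean of the others by a median of 1.08, in 20 of 20 genes. A second stretch of 20 genes there, from Gm4285 to Mtrf1, was higher in tumor 23 by 1.01, in 18 of 20. On chromosome 9, 29 neighbours from Rad54l2 to Cdhr4 were higher in tumor 25 by 0.97, in 27 of 29. Over whole chromosomes the medians were smaller, with 0.31 for tumor 25 on chromosome 9 (809 genes) and 0.17 for tumor 23 on chromosome 14 (502 genes). DNA copy number was not measured.

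Xist was at 4.24 in tumor 25 against 9.52 and 11.07 in the others, but the 439 genes above background on the X chromosome did not stand apart there. Their median difference from the mean of the others was 0.12 there, 0.01 for tumor 23 and -0.27 for tumor 24, which was the lowest of its chromosomes together with chromosome 9 (-0.27), beside 0.14 for tumor 25 and -0.18 for tumor 24 on chromosome 1.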
